A study of Mus musculus with 24 samples.

Results

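The genes described here encode the nuclear subunits of the mitochondrial respiratory chain and of ATP synthase, read in mouse bone marrow derived macrophages on 24 one-colour microarrays. They were taken by name: every gene spot whose gene name starts with Ndufa, Ndufb, Ndufc, Ndufs or Ndufv (complex I), Uqcr (complex III), Cox4, Cox5, Cox6, Cox7 or Cox8 (complex IV) or Atp5 (complex V, ATP synthase), with the assembly factors whose names start with Ndufaf left out. This gave 81 of the 37074 gene names on the array, on 132 spots and 123 probes, and the rule uses no measured value. Of the 81, 78 were bright enough on enough arrays to be tested, 38 of complex I, 8 of complex III, 14 of complex IV and 18 of complex V, among 25791 genes tested in all. Cox7b2, Cox8b and Cox8c, isoforms known from testis, heart or skeletal muscle, did not reach that level and were not tested. The prefixes also took 3 complex V names that are not subunits of the enzyme (Atp5s, Atp5sl and the pseudogene Atp5c1-ps) and Ndufa4l2, a paralog of Ndufa4. These 4 names are counted below with the others.

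Marrow cells were grown for 6 days in 20 ng/ml M-CSF, the cytokine that drives macrophage development. The cells labelled WT are given as wild type or floxed controls (Slc2a1 fl/fl), and the label does not say which of these each array is. The cells labelled KO carried floxed Slc2a1, the gene of the glucose transporter GLUT1, together with LysM-Cre, a recombinase driven by the lysozyme gene Lyz2 and so active in myeloid cells. For 24 h, cells of both genotypes stayed unstimulated (M0), were given 5 ng/ml lipopolysaccharide (LPS) with 10 ng/ml interferon-gamma (M1), or were given 10 ng/ml interleukin-4 (IL-4, M2). Each of the 6 groups had 4 biological replicates, 1 array each, and the labels used here give neither age nor sex of the mice.

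Complex I takes electrons from NADH and complex III from ubiquinol. Complex IV, cytochrome c oxidase, hands them to oxygen, and the proton gradient these complexes build drives ATP synthase. Most subunits are encoded in the nucleus and a few in mitochondrial DNA, so that both sets of genes are needed for a working chain. Macrophages activated with LPS and interferon-gamma are known for a shift towards glycolysis, and those activated with IL-4 for reliance on oxidative phosphorylation.

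A level is the log2 intensity of the gene's brightest probe relative to the 75th percentile of its array, and a difference is the log2 difference of 2 group means ± its standard error in the limma fit. A gene was called higher or lower where the Benjamini-Hochberg adjusted p over all 25791 genes was under 0.05. Levels of different genes are not compared with each other, since each probe has its own brightness. In RNA from whole cultures, fewer cells that express a gene and less RNA per cell cannot be told apart.

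The 75th percentile of the arrays ranged from 1504 to 2973 intensity units. It was lowest in KO M1, at 1581 ± 88.9 (SD, n = 4) against 2017 ± 253 in WT M1, and between 53.1% and 71.4% of gene probes were well above background. The arrays lay on 3 slides, each with 1 complete set of the 6 groups and 1 further pair. The 3 further pairs, M0 replicate 2, M1 replicate 3 and M2 replicate 4 of both genotypes, are called the 4th set here. It stood apart from the other 18 arrays, for the Y-linked gene Ddx3y was between -8.44 and -7.36 on its 6 arrays and between -0.52 and 1.08 on the others. The Slc2a1 probe gave no difference that passed between genotypes, -0.33 ± 0.35 (adjusted p = 1) at M0, 0.25 ± 0.35 (adjusted p = 0.584) at M1 and -0.18 ± 0.35 (adjusted p = 1) at M2, and the exons that Cre removes are not given here. Lyz2, which carries the Cre insertion, was between 3.08 and 6.33 on the 12 arrays labelled KO and between 7.49 and 8.09 on the 12 labelled WT. The 7 macrophage markers were well represented in every group, with a summed level of 521 to 795 times the array's 75th percentile.

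The 3 genes Atp5g1, Atp5g2 and Atp5g3 encode one and the same mature protein, subunit c of the rotating ring of ATP synthase, behind different import signals, and the results below differ between them. Cox6a1 encodes the widely expressed form of COX6A, whose muscle form, Cox6a2, gave the largest genotype difference of all 78 genes. The 250 bases before the start of transcription of these 4 genes are shown because genes with the same mature product, or forms of one subunit, are set side by side below. They are from the RefSeq promoter table on GRCm38.p6 and are written 5′ to 3′ on the strand of the gene, the minus strand for each. Capitals mark matches to the motif of NRF-1, a regulator of nuclear genes for the respiratory chain. The windows are chr11:96075632-96075881, chr15:102671048-102671297, chr2:73911327-73911576 and chr5:115348959-115349208.
Atp5g1: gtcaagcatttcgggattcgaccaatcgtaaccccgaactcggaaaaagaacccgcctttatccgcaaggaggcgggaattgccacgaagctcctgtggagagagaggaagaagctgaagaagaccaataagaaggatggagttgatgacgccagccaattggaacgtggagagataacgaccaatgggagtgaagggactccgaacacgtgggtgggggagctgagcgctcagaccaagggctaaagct
Atp5g2: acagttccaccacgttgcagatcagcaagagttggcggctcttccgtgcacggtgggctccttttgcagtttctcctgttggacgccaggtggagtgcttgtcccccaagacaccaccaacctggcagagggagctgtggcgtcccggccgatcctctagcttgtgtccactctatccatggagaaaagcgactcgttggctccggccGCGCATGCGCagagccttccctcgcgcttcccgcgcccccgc
Atp5g3: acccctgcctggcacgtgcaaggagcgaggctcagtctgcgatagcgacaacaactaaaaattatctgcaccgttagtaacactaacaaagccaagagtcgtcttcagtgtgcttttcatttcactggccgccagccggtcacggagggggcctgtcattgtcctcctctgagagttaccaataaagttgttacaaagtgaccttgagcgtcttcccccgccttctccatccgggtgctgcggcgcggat
Cox6a1: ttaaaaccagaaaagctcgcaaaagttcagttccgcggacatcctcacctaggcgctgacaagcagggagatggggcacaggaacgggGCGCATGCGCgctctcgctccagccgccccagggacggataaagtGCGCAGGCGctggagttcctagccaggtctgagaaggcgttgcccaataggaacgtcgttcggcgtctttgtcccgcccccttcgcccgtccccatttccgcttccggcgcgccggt

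The NRF-1 motif searched was GCGCANGCG on both strands, so that a match and its near-palindrome on the other strand overlap. Atp5g2 had it from -42 to -34 relative to the start and, on the opposite strand, from -41 to -33. Cox6a1 had it from -162 to -154 and from -117 to -109, with an opposite-strand match from -161 to -153. Atp5g1 and Atp5g3 had no match in these 250 bases, which says only that these letters are not in this window. Atp5g3 has 1 match further on, which reaches into the transcribed bases and is counted below. The other motifs searched were CCGGAAGT, bound by GABP, and AAGATGGCG, bound by YY1, in windows of 300 bases that also hold the first 50 transcribed ones. Of the 81 members, 66 had a window in the table. The NRF-1 motif was in 18 of the 66 (27.3%) against 7.03% of the 27025 genes in the table, the GABP motif in 5 (7.58% against 4.31%) and the YY1 motif in 8 (12.1% against 1.64%). At least 1 of the 3 was in 39.4% of 33 complex I windows, in 3 of 5 complex III windows, in 16.7% of 12 complex IV windows and in 62.5% of 16 complex V windows. A match is a description of the sequence and was not tested as a binding site.

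With IL-4, genes of all 4 complexes rose together by a modest amount in both genotypes. In WT, 42 of 78 rose and 1 fell, where 6.27% of all genes tested rose and 8.84% fell. In KO, 37 rose and 0 fell, against 6.84% and 6.2% of all genes. The median difference of the 78 genes was 0.38 in WT and 0.38 in KO, against -0.09 and -0.06 for all genes, and 73 and 74 of the 78 values were above 0. Nearly all members thus lay on the same side of 0.

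**Figure D1:**
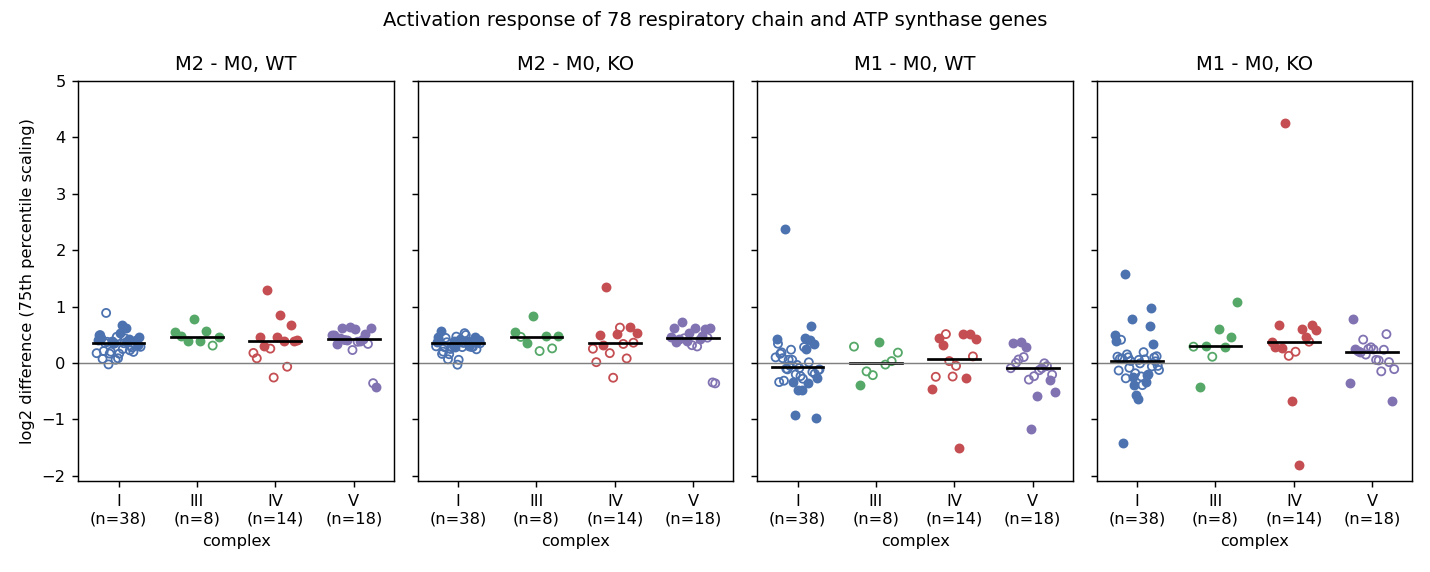
Log2 difference of each of the 78 tested genes between activated and unstimulated cells, by complex, for IL-4 (M2) and for LPS with interferon-gamma (M1) in each genotype. Filled points passed at adjusted p under 0.05, open points did not, and bars are medians; in the IL-4 panels all 4 medians lie above 0, between 0.35 and 0.47, while in the M1 panels the points spread to both sides, and the M1 positions shift down with quantile normalization or bright genes as centre and up with the median of tested genes as centre.

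The rise with IL-4 was found in each complex. In WT it was called for 14 of 38 complex I genes (median 0.35), 7 of 8 of complex III (0.46), 9 of 14 of complex IV (0.39) and 12 of 18 of complex V (0.42). In KO the counts were 14, 5, 6 and 12, with medians of 0.35, 0.47, 0.35 and 0.44. Among the 7 core subunits of complex I, those that carry its redox centres, 4 rose in WT and 5 in KO, and of the 30 accessory subunits 10 and 9 did. Of the 5 subunits of the catalytic F1 part of ATP synthase, 4 rose in each genotype, and of the 10 of the membrane part and stalk, 7 did in each.

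Uqcrc1, a core protein of complex III, had the clearest rise. Its probe lies at chr9:108851624-108851683 (mm9). It was 4.78, 4.54, 4.75 and 4.96 in replicates 1 to 4 of WT M0 and 5.67, 5.38, 5.69 and 5.39 at M2 in WT, and 4.73, 4.34, 4.57 and 4.60 at M0 in KO and 5.48, 5.38, 5.38 and 5.33 at M2 in KO. All 8 M2 arrays lay above all 16 others. The difference was 0.77 ± 0.11 (adjusted p = 5.58e-05) in WT and 0.83 ± 0.11 (adjusted p = 3.05e-05) in KO. Cox6a2 rose by more, 1.29 ± 0.24 (adjusted p = 0.000897) in WT and 1.35 ± 0.24 (adjusted p = 0.000732) in KO. Cox7a1, the muscle form of COX7A, rose in WT by 0.85 ± 0.26 (adjusted p = 0.0309), and in KO its difference was 0.63 ± 0.26 (adjusted p = 0.125).

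Cox7b, a small complex IV subunit, rose by 0.67 ± 0.17 in WT and 0.64 ± 0.17 in KO (adjusted p = 0.011 and 0.0175). Ndufb6, of the membrane arm of complex I, rose by 0.67 ± 0.21 (adjusted p = 0.0398) in WT, and its KO value was 0.38 ± 0.21 (adjusted p = 0.269). The F1 subunits Atp5b (beta, which holds the catalytic sites) and Atp5d (delta) rose by 0.62 ± 0.10 and 0.72 ± 0.10 in KO (adjusted p = 0.000146 and 6.56e-05), and in WT by 0.49 ± 0.10 and 0.61 ± 0.09 (adjusted p = 0.00121 and 0.000129). The single fall in WT was that of Atp5sl, which despite its name is an assembly factor of complex I, at -0.43 ± 0.13 (adjusted p = 0.0286), with -0.36 ± 0.13 (adjusted p = 0.071) in KO.

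Within the 4 sets of arrays the median of the genes ran from 0.23 to 0.50 in WT and from 0.34 to 0.39 in KO, and of the 75 genes with a value in every set, 63 in WT and 70 in KO kept 1 sign. The median stayed positive under each of the 4 scalings run, from 0.30 to 0.41 in WT and from 0.23 to 0.43 in KO. The count of called genes was less stable. With the set as a block in the model, 57 rose and 2 fell in KO and 55 rose and 2 fell in WT, and centring on bright genes left 18 higher and 2 lower in KO. In WT, 26 rose without M0 replicate 2 and 27 without M2 replicate 3, and 32 were called higher under all 4 scalings against 17 in KO. Among the genes that rose, Atp5g1, Atp5j2, Ndufs1, Uqcrb and Uqcrfs1 had another probe of the opposite sign in both genotypes. So did Atp5f1 in WT and Ndufv2 in KO, and none of these other probes was called. With the mean of all probes of a gene, 37 rose and 1 fell in WT, and 30 rose and 0 fell in KO.

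The IL-4 response of the 2 genotypes was close. Of the 42 genes that rose in WT and the 37 that rose in KO, 34 were the same, 81% of the first list and 91.9% of the second. Over all genes the shares were 83.4% and 76.4%. Across the 78 genes the 2 responses, which rest on different arrays, had the same sign for 75 genes, a Pearson correlation of 0.918 and a median absolute difference of 0.06, and the largest difference was 0.44, for Ndufa4l2 near background. Over all genes, 82.4% had the same sign, with a Pearson correlation across genes of 0.843 and a median absolute difference of 0.14. The difference of the responses passed for 0 of 78 genes, and for 0% of all genes (0 genes), in limma. At an unadjusted p under 0.05 it held 0 members and 254 of all genes.

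In unstimulated cells and after IL-4, no member passed the test between genotypes. KO minus WT in M0 was called for 0 of 78 genes, where 0.0543% of all genes (14) were called, and 3 members had an unadjusted p under 0.05. In M2 it was called for 0, where 0.0427% of all genes (11) were, and 2 had an unadjusted p under 0.05. The members' values lay close to 0, with 72 of 78 in M0 and 67 in M2 within 0.2. Most lay on the lower side, for 8 of 78 in M0 and 12 of 78 in M2 were above 0, against 12460 and 14743 of the 25791 genes, and their medians were -0.09 and -0.10, against -0.01 and 0.03 for all genes. In the sets the M0 median ran from -0.17 to -0.03 and the M2 median from -0.28 to 0.05. With quantile normalization and with bright genes as centre, the M0 median was -0.03 and -0.01, against -0.01 and 0.07 for all genes. The M2 median was -0.08 under each, against 0.01 and 0.05 for all genes.

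**Figure D2:**
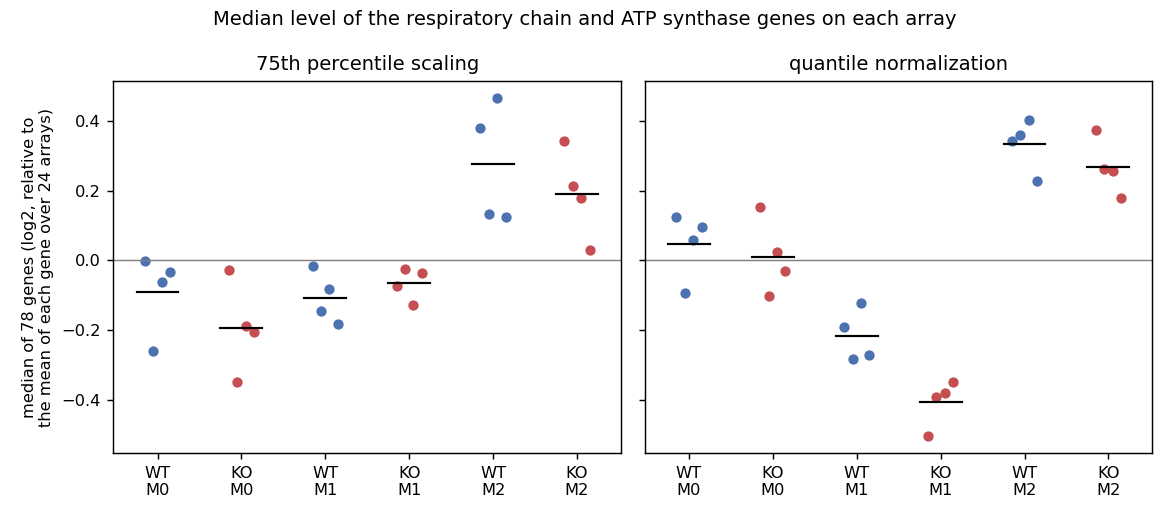
Median over the 78 genes on each array, after each gene was set relative to its mean over the 24 arrays (log2), for WT (blue) and KO (red) in each state, with 75th percentile scaling (left) and quantile normalization (right). Bars are means of 4 arrays; the M2 arrays are highest under both, and the M1 arrays of KO lie near those of WT under the first and below them under the second.

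Activation with LPS and interferon-gamma moved individual genes up and down, and no complex moved in 1 direction. In WT, 16 of 78 genes rose and 15 fell, which is 20.5% and 19.2% of the members against a background of 26% higher and 21.9% lower. In KO, 24 rose and 13 fell, against 33% and 23.5%. The medians were -0.05 and 0.12, against 0.05 and 0.25 for all genes. In WT 7 rose and 7 fell in complex I, 1 and 1 in complex III, 5 and 3 in complex IV and 3 and 4 in complex V. In KO the counts were 7 and 8, 5 and 1, 9 and 2, and 3 and 2.

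These directions depend on how the arrays are scaled. With quantile normalization 3 rose and 37 fell in WT and 5 rose and 56 fell in KO. With each array centred on its bright genes the WT counts were 13 and 22 and those of KO 4 and 57, and centred on the median of the tested genes they were 19 and 10 for WT and 34 and 9 for KO. The choice moves all genes, for the all-gene median of M1 minus M0 in KO was 0.25 with the 75th percentile, 0.04 with quantiles, 0.36 with the tested genes and -0.34 with the bright genes. Relative to that median the members lay lower with the 75th percentile and with quantiles, in WT and in KO. The other scalings shift all genes of an array alike, so they cannot change this. The calls that held in all 4 were 3 rises and 10 falls in WT and 3 rises and 9 falls in KO. The WT falls were those of Atp5g2, Atp5h, Atp5sl, Cox4i1, Cox7a1, Ndufb10, Ndufb11, Ndufb7, Ndufs1 and Ndufs8. The KO falls were those of Atp5a1 (0.21 on its other probe), Atp5s, Cox6b2, Cox7a1, Ndufa4, Ndufb11, Ndufb3, Ndufb4 and Ndufc2. The KO rises were those of Cox6a2, Ndufs4 and Uqcrq. In WT 24 genes fell without the 4th set of arrays, against 24.7% of all genes.

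In WT, the rises that held under every scaling were those of Ndufs4, Cox7a2 and Ndufa4l2. Ndufa4l2 was near background and reached the level for testing only through its WT M1 arrays, so its call there is no separate support. Ndufs4, an accessory subunit at the NADH end of complex I, rose by 0.65 ± 0.13 (adjusted p = 0.000354) in WT and 0.97 ± 0.13 (adjusted p = 2.4e-06) in KO. Cox7a2, the widely expressed COX7A, rose by 0.52 ± 0.12 (adjusted p = 0.00178) in WT and 0.61 ± 0.12 (adjusted p = 0.000295) in KO. Its levels were 5.58, 5.24, 5.42 and 5.57 at M0 in WT and 6.17, 5.89, 6.00 and 5.80 at M1 in WT, and 5.61, 5.29, 5.46 and 5.21 at M0 in KO and 6.09, 6.01, 5.93 and 5.97 at M1 in KO, with no overlap between the states. The rise in KO was not called under quantile normalization, where the difference was -0.10.

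Of the other largest rises in WT, Cox7b gave 0.50 ± 0.17 (adjusted p = 0.02), Cox5a, which pairs with COX4 in complex IV, 0.44 ± 0.10 (adjusted p = 0.000807), and Ndufc1, a small complex I subunit, 0.44 ± 0.18 (adjusted p = 0.0466). None of these 3 passed with quantile normalization. In KO the largest rises beside Cox6a2 and Ndufa4l2 were those of Uqcrq, a small complex III subunit, by 1.09 ± 0.13 (adjusted p = 4.34e-07), of Atp5b by 0.78 ± 0.10 (adjusted p = 5.62e-07) and of the brighter probe of Ndufab1, the mitochondrial acyl carrier protein, by 0.78 ± 0.10 (adjusted p = 1.02e-06), while the other Ndufab1 probe gave -0.26. Uqcrq passed under every scaling, while Atp5b and Ndufab1 gave 0.04 and 0.19 under quantile normalization and did not.

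Among the falls, Cox7a1 fell in both genotypes, at -1.51 ± 0.28 (adjusted p = 0.000163) in WT and -1.82 ± 0.26 (adjusted p = 5.41e-06) in KO. Its levels were 1.31, 0.36, 1.43 and 1.45 at M0 in WT and -0.24, -0.23 and -0.63 on the 3 WT M1 arrays that kept the spot, and 1.60, 0.45, 1.27 and 1.4 at M0 in KO and -0.91, -0.81, -0.25 and -0.58 at M1 in KO. At M2 the WT arrays read 1.60, 2.15, 2.41 and 1.81 and the KO arrays 1.83, 1.89, 1.92 and 1.59. The M1 arrays lay below the M0 arrays in both genotypes, and in KO 1 M0 array, at 1.60, reached into the range of M2.

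Ndufb11, of the membrane arm of complex I, fell, at -0.92 ± 0.09 (adjusted p = 6.04e-08) in WT and at -0.39 ± 0.09 (adjusted p = 0.00105) in KO. The peripheral stalk subunit Atp5h fell in WT, at -0.59 ± 0.12 (adjusted p = 0.000544), with 0.05 ± 0.12 (adjusted p = 0.739) in KO, and Atp5sl fell in WT, at -0.52 ± 0.13 (adjusted p = 0.00239), with -0.11 ± 0.13 (adjusted p = 0.495) in KO. In KO, Cox6b2, the testis form of COX6B, fell, at -0.67 ± 0.17 (adjusted p = 0.00208), Atp5s, a coupling factor of ATP synthase, at -0.67 ± 0.13 (adjusted p = 0.000218), and Ndufb4 and Ndufb3, both of the complex I membrane arm, at -0.63 ± 0.17 and -0.57 ± 0.11 (adjusted p = 0.00333 and 0.000139). Their WT values were -0.24 ± 0.17, -0.21 ± 0.13, -0.47 ± 0.17 and -0.04 ± 0.11 (adjusted p = 0.266, 0.217, 0.0273 and 0.823). These falls, from Cox7a1 to Ndufb3, passed under each of the 4 scalings, except that of Ndufb4 in WT.

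The M1 state is where the genotypes parted, for these genes as for all genes tested. In M1, KO minus WT was called higher for 20 and lower for 10 of the 78 genes, which is 25.6% and 12.8% of the members against 22.7% and 21.3% of all genes. The response to M1 activation itself differed between genotypes, as tested by the interaction term, for 16 genes upward and 3 downward in KO relative to WT, against 15% and 14.8% of all genes. By complex, 5 were higher and 7 lower in KO M1 in complex I, 4 and 0 in complex III, 5 and 0 in complex IV and 6 and 3 in complex V. For the response the counts were 5 and 3, 2 and 0, 5 and 0, and 4 and 0.

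These counts too moved with the scaling. KO minus WT in M1 gave 9 higher and 29 lower with quantile normalization, 15 and 9 on the median of tested genes and 7 and 49 on the bright genes, where the all-gene medians were -0.05, 0.12 and -0.30 against 0.13 with the 75th percentile. The shares of all genes were 18.4% and 25.3%, 22.1% and 21.5%, and 11.6% and 37.2%. The response difference gave 6 and 16, 14 and 3, and 4 and 34. Its shares of all genes were 12.8% and 17.8%, 15.3% and 14.1%, and 7.52% and 30.8%. With the set as a block 23 were higher and 18 lower in KO M1, against 29.7% and 24.5% of all genes. The members' median ran from -0.06 to 0.17 in the 4 sets, with 2 sets on each side of 0, and the group as a whole had no constant direction.

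**Figure D3:**
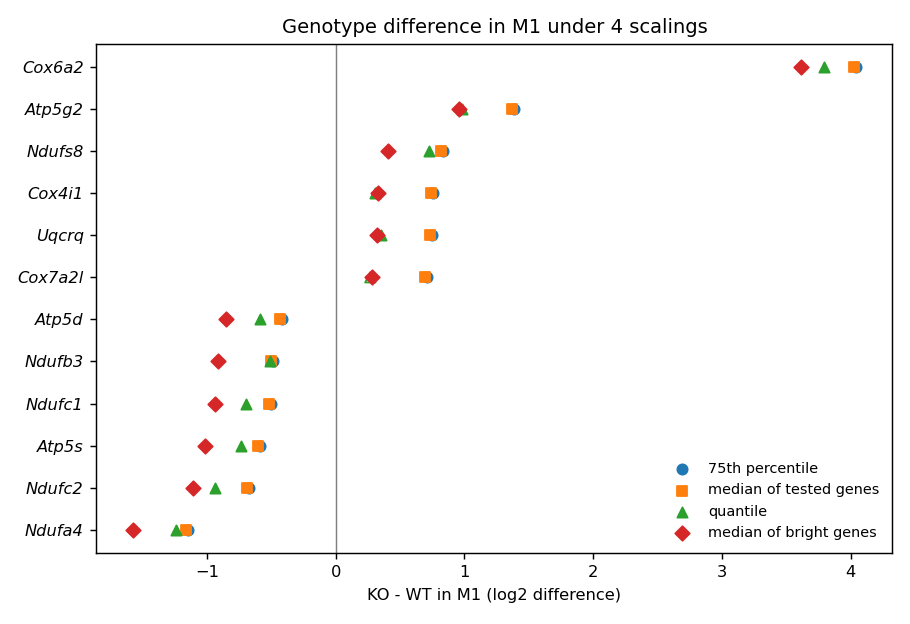
Log2 difference KO minus WT in M1 for the 6 members with the largest called rise and the 6 with the largest called fall, under 4 scalings of the arrays (symbols). Each gene stays on its side of 0 under all 4, while its size moves, as for Cox4i1 from 0.76 to 0.31.

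Cox6a2 showed the largest genotype difference of the 78 genes. COX6A is a regulatory subunit of complex IV, and Cox6a2 is its form known from heart and skeletal muscle. The probe lies at chr7:135349160-135349219 (mm9) and was well above background on all 24 arrays. Its level was -0.28, -0.55, 0.06 and 0.32 in replicates 1 to 4 of WT M0, 0.22, 0.32, 0.54 and 0.53 at M1 in WT and 0.96, 0.94, 1.57 and 1.24 at M2 in WT. The KO arrays read -0.08, -0.43, 0.76 and 0.49 at M0, 4.64, 4.13, 4.53 and 4.48 at M1 and 1.3, 1.83, 1.89 and 1.11 at M2. The 4 KO M1 arrays lay far above all 20 others, and the genotypes overlapped in M0 and in M2. The means in M1 were 0.40 ± 0.16 in WT and 4.44 ± 0.22 in KO (SD, n = 4 each), a difference of 4.04 ± 0.24 (adjusted p = 8.13e-11), or 16.5-fold.

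Cox6a2 rose with M1 activation in KO by 4.26 ± 0.24 (adjusted p = 1.09e-11), and in WT the difference was 0.51 ± 0.24 (adjusted p = 0.0922), which passed with the replicate number as a block (adjusted p = 0.0431). Across states the number joins some arrays of different sets. Here and below, a call between states that the block changes is therefore no added support. The response of Cox6a2 differed by 3.75 ± 0.34 (adjusted p = 1.01e-07). In the 4 sets KO minus WT in M1 was 3.81 to 4.42, and it was 3.79 with quantile normalization and 3.61 on the bright genes. In the RefSeq annotation the gene Itgad, an integrin of macrophages, overlaps Cox6a2 by a short stretch, and the Itgad probe gave -0.16 ± 1.49 (adjusted p = 0.94) in the same comparison.

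Cox6a1, the widely expressed form, gave no called genotype difference. Its level was 7.39, 7.25, 7.43 and 7.24 at M0 in WT, 7.64, 7.61, 7.68 and 7.64 at M1 in WT and 7.70, 7.46, 7.79 and 7.57 at M2 in WT. The KO arrays read 7.32, 7.09, 7.27 and 7.33 at M0, 7.50, 7.54, 7.46 and 7.54 at M1 and 7.65, 7.66, 7.53 and 7.44 at M2. It rose with M1 by 0.32 ± 0.09 in WT (adjusted p = 0.00485) and also in KO (0.26 ± 0.09, adjusted p = 0.0145), signs that turn with quantile normalization (-0.13 and -0.51) and, in KO, on the bright genes. The KO M1 arrays lay just below the WT M1 arrays without overlap, at -0.13 ± 0.09 (adjusted p = 0.236). It rose with IL-4 by 0.30 ± 0.09 in WT and 0.32 ± 0.09 in KO (adjusted p = 0.022 and 0.0168), calls that were lost with quantile normalization.

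**Figure D4:**
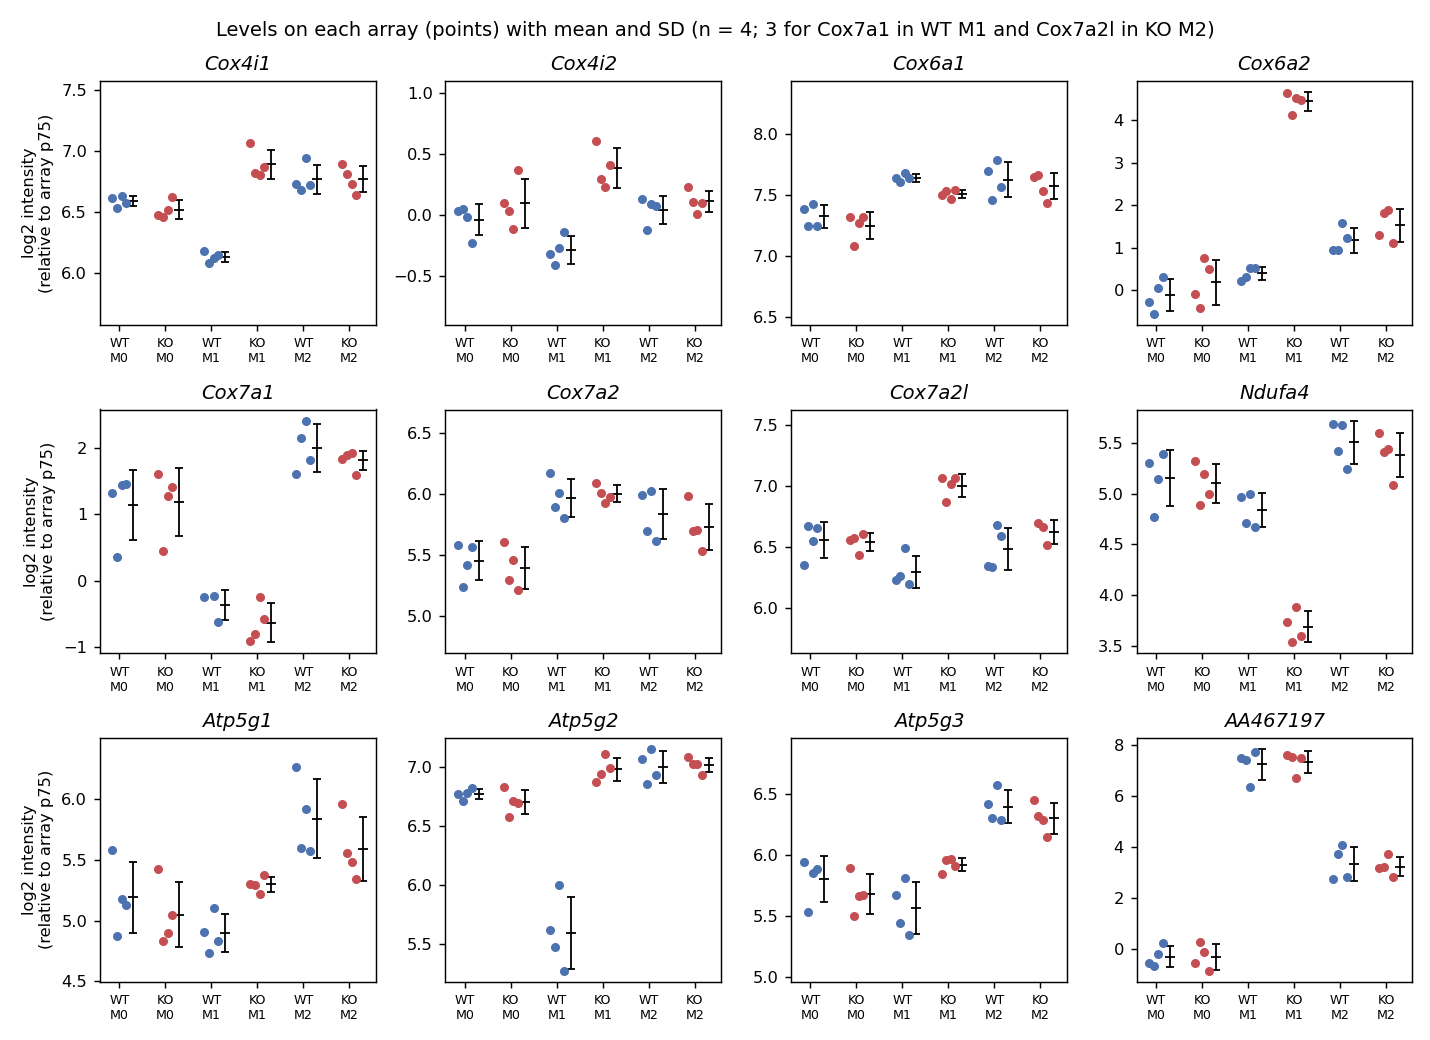
Level of 12 genes on each array (log2 intensity relative to the array's 75th percentile; each panel has its own axis that does not start at 0), WT blue and KO red, with the mean and SD of each group beside the points. Cox6a2 is high on the 4 KO M1 arrays, Ndufa4 is low on the same 4, Cox4i1 and Atp5g2 are low on the 4 WT M1 arrays, and AA467197 is high on all 8 M1 arrays.

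Cox4i1, the common form of the COX4 subunit of complex IV, moved in opposite directions in the 2 genotypes. Its probe lies at chr8:123197924-123197983 (mm9). The level was 6.62, 6.54, 6.64 and 6.58 at M0 in WT, 6.18, 6.08, 6.13 and 6.14 at M1 in WT and 6.73, 6.68, 6.94 and 6.72 at M2 in WT, and 6.48, 6.46, 6.52 and 6.63 at M0 in KO, 7.07, 6.82, 6.80 and 6.87 at M1 in KO and 6.90, 6.81, 6.73 and 6.64 at M2 in KO. The 4 WT M1 arrays were below all 20 others, and the KO M1 arrays were above the M0 arrays of their genotype. It fell with M1 in WT, at -0.46 ± 0.08 (adjusted p = 0.000119) and rose in KO by 0.37 ± 0.08 (adjusted p = 0.000736).

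The rise of Cox4i1 in KO turned to -0.39 with quantile normalization and -0.22 on the bright genes. The genotype difference in M1, 0.76 ± 0.08 (adjusted p = 2.47e-07), and that of the response, 0.83 ± 0.12 (adjusted p = 1.61e-05), passed under all 4 scalings. In the sets the first was 0.68 to 0.89. With IL-4 the differences were 0.18 ± 0.08 (adjusted p = 0.176) in WT and 0.25 ± 0.08 (adjusted p = 0.0531) in KO, the second of which passed with the block (adjusted p = 0.0489).

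Cox4i2, the form known from lung and from low oxygen, had levels of 0.04, 0.05, -0.01 and -0.22 at M0 in WT, -0.32, -0.41, -0.27 and -0.13 at M1 in WT and 0.14, -0.12, 0.09 and 0.08 at M2 in WT. The KO arrays read 0.10, 0.04, -0.11 and 0.37 at M0, 0.61, 0.30, 0.23 and 0.41 at M1 and 0.23, 0.11, 0.01 and 0.10 at M2. The genotypes did not overlap in M1 and overlapped in M0 and M2. KO minus WT in M1 was 0.67 ± 0.11 (adjusted p = 3.91e-05) and the response difference 0.54 ± 0.16 (adjusted p = 0.0122), and on the bright genes these were 0.24 and 0.02 and did not pass. Within KO it rose with M1 by 0.29 ± 0.11 (adjusted p = 0.0315), a sign that turned on the bright genes (-0.31), and in WT the value was -0.25 ± 0.11 (adjusted p = 0.0737).

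Cox7a2l, a factor that joins complexes III and IV into supercomplexes, was 6.35, 6.67, 6.55 and 6.65 at M0 in WT, 6.23, 6.26, 6.49 and 6.19 at M1 in WT and 6.35, 6.34, 6.68 and 6.59 at M2 in WT. The KO arrays read 6.56, 6.58, 6.44 and 6.61 at M0, 7.07, 6.87, 7.01 and 7.06 at M1 and 6.69, 6.66 and 6.51 on the 3 M2 arrays that kept the spot. The KO M1 arrays lay above all other arrays. The KO M1 mean minus the WT M1 mean was 0.71 ± 0.10 (adjusted p = 1.03e-05, difference 0.53 to 0.87 in the sets) and the response difference 0.72 ± 0.15 (adjusted p = 0.000679), which became 0.27 and 0.20 with quantile normalization and did not pass. It fell with M1 in WT (-0.26 ± 0.10, adjusted p = 0.0424) and rose in KO (0.46 ± 0.10, adjusted p = 0.000737). The fall was lost with the replicate number as a block (adjusted p = 0.0519) but not with the set as a block, and the rise turned to -0.29 with quantile normalization. Cox7a1 and Cox7a2 gave no such difference, with -0.27 ± 0.28 (adjusted p = 0.468) and 0.03 ± 0.12 (adjusted p = 0.855), although Cox7a2 was -0.38 with quantile normalization.

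Ndufa4 had the lowest KO minus WT difference in M1 of the 78 genes. It is named as a complex I subunit but is known to sit in complex IV. Its probe lies at chr6:11850423-11850482 (mm9). Its level was 5.30, 4.77, 5.15 and 5.39 at M0 in WT, 4.96, 4.71, 5.00 and 4.67 at M1 in WT and 5.69, 5.42, 5.68 and 5.24 at M2 in WT, and 5.32, 4.89, 5.19 and 5.00 at M0 in KO, 3.74, 3.54, 3.88 and 3.60 at M1 in KO and 5.60, 5.41, 5.44 and 5.09 at M2 in KO. The 4 KO M1 arrays were below all 20 others, by more than the whole spread of the M0 arrays. In M1, KO minus WT was -1.15 ± 0.15 (adjusted p = 2.54e-06, difference -1.23 to -1.07 in the 4 sets), the response difference -1.10 ± 0.21 (adjusted p = 0.000439), and the M1 response -1.41 ± 0.15 (adjusted p = 8.42e-08) in KO and -0.32 ± 0.15 (adjusted p = 0.0938) in WT. The first 3 passed under all 4 scalings, and the value in WT passed with the replicate number as a block (adjusted p = 0.0299).

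AA467197 is the paralog of Ndufa4 that is known to take its place in complex IV of inflamed cells, and it is no member by name. Its level was -0.55, -0.68, -0.18 and 0.24 at M0 in WT, 7.48, 7.41, 6.36 and 7.71 at M1 in WT and 2.74, 3.73, 4.09 and 2.81 at M2 in WT. The KO arrays read -0.57, 0.28, -0.11 and -0.85 at M0, 7.61, 7.54, 6.71 and 7.51 at M1 and 3.16, 3.20, 3.72 and 2.82 at M2. The 3 states did not overlap in either genotype, and the genotypes overlapped in each state. It rose by 7.54 ± 0.35 with M1 in WT and by 7.65 ± 0.35 in KO (adjusted p = 1.48e-12 and 5.43e-13), and by 3.63 ± 0.35 and 3.54 ± 0.35 with IL-4 (adjusted p = 3.85e-07 and 6.57e-07). KO minus WT in M1 was 0.10 ± 0.35 (adjusted p = 0.841). The response difference of the paralog was 0.12 ± 0.49 (adjusted p = 0.895) and did not pass.

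Ndufa4l2, the other paralog, known as a target of hypoxia-inducible factor, was near background. Its probe was well above background on 3 of 4 WT M1 arrays, on 0 of 4 in WT M0 and WT M2, and on 1 of 4 in each KO group. Its level was -7.27, -7.45, -8.24 and -7.90 at M0 in WT and -5.29, -5.33, -5.46 and -5.25 at M1 in WT, and -7.82, -6.06, -7.47 and -5.90 at M0 in KO and -6.52, -4.42, -5.49 and -4.48 at M1 in KO. At M2 the WT arrays read -6.90, -7.04, -6.42 and -6.95 and the KO arrays -7.25, -6.75, -5.79 and -5.69. Set against the lowest signal marked as well above background on each array, the rise with M1 in WT was at least 1.44-fold. The limma fit of the measured values gave adjusted p = 0.000221, but the gene was tested only because of its WT M1 arrays. The KO values of -6.52 to -4.42 in M1 overlapped those of M0.

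The c-ring genes, whose upstream sequences are given above, differed in M1. Atp5g2, with its probe at chr15:102493359-102493418 (mm9), was 6.77, 6.71, 6.78 and 6.82 at M0 in WT, 5.62, 5.47, 6.00 and 5.28 at M1 in WT and 7.07, 6.85, 7.15 and 6.93 at M2 in WT. The KO arrays read 6.83, 6.58, 6.71 and 6.70 at M0, 6.88, 6.94, 7.11 and 6.99 at M1 and 7.08, 7.03, 7.02 and 6.93 at M2. The 4 WT M1 arrays stood below all 20 others. It fell with M1 in WT, at -1.18 ± 0.12 (adjusted p = 5.79e-08), while the KO value was 0.28 ± 0.12 (adjusted p = 0.0504), with the opposite sign under quantile normalization (-0.50) and past the test with the block (adjusted p = 0.0315). The KO M1 mean minus the WT M1 mean was 1.39 ± 0.12 (adjusted p = 6.23e-09, difference 1.11 to 1.72 in the sets) and the response difference 1.46 ± 0.17 (adjusted p = 1.17e-06), and both passed under all 4 scalings.

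Atp5g1 was 5.58, 4.88, 5.18 and 5.13 at M0 in WT, 4.91, 4.74, 5.10 and 4.83 at M1 in WT and 6.26, 5.59, 5.92 and 5.57 at M2 in WT, and 5.42, 4.83, 4.90 and 5.04 at M0 in KO, 5.30, 5.29, 5.22 and 5.37 at M1 in KO and 5.96, 5.55, 5.48 and 5.34 at M2 in KO. Atp5g3 was 5.94, 5.53, 5.85 and 5.88 at M0 in WT, 5.67, 5.44, 5.81 and 5.34 at M1 in WT and 6.42, 6.30, 6.57 and 6.28 at M2 in WT, and 5.89, 5.50, 5.66 and 5.67 at M0 in KO, 5.84, 5.96, 5.96 and 5.91 at M1 in KO and 6.45, 6.32, 6.28 and 6.14 at M2 in KO. For both the M1 arrays of the 2 genotypes did not overlap, with KO the higher, but the gap was small. In M1, KO minus WT was 0.40 ± 0.17 (adjusted p = 0.0673) for Atp5g1, which passed with the replicate number as a block at adjusted p = 0.0163, and 0.35 ± 0.12 (adjusted p = 0.0204) for Atp5g3. The Atp5g3 value became -0.02 with quantile normalization and -0.08 on the bright genes.

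With IL-4, 2 of these 3 genes rose. Atp5g3 rose by 0.59 ± 0.12 in WT and 0.62 ± 0.12 in KO (adjusted p = 0.00154 and 0.00121) and Atp5g1 by 0.64 ± 0.17 and 0.54 ± 0.17 (adjusted p = 0.0148 and 0.047). In each genotype 1 of the 2 other Atp5g1 probes had the opposite sign, -0.27 in WT and -0.20 in KO, neither past the test. Atp5g2, the one of the 3 that fell in WT M1, gave 0.23 ± 0.12 and 0.31 ± 0.12, neither past the test (adjusted p = 0.216 and 0.0857). With M1 activation Atp5g1 gave -0.30 ± 0.17 in WT and 0.25 ± 0.17 in KO and Atp5g3 -0.24 ± 0.12 and 0.24 ± 0.12, none past the test (adjusted p = 0.175, 0.238, 0.111 and 0.0942).

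Among the core subunits of complex I, Ndufs8, an iron-sulphur subunit on the path to ubiquinone, fell with M1 in WT as Atp5g2 did. Its probe lies at chr19:3908949-3909008 (mm9). It was 4.31, 4.18, 4.48 and 4.55 at M0 in WT and 3.21, 3.31, 3.72 and 3.38 at M1 in WT, and 4.33, 4.11, 4.25 and 4.15 at M0 in KO and 4.24, 4.30, 4.27 and 4.15 at M1 in KO. At M2 the WT arrays read 4.84, 4.62, 5.10 and 4.42 and the KO arrays 4.62, 4.49, 4.43 and 4.27. The 4 WT M1 arrays were below all 20 others. It fell in WT, at -0.97 ± 0.13 (adjusted p = 4.52e-06), the KO value was 0.03 ± 0.13 (adjusted p = 0.876), and the response difference was 1.00 ± 0.19 (adjusted p = 0.000347). KO minus WT in M1 was 0.84 ± 0.13 (adjusted p = 3.02e-05).

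Uqcrq was the complex III gene with the largest genotype difference in M1. Its probe lies at chr11:53242471-53242530 (mm9). It was 5.67, 5.15, 5.63 and 5.56 at M0 in WT and 5.71, 5.58, 5.84 and 5.61 at M1 in WT, and 5.47, 5.12, 5.42 and 5.38 at M0 in KO and 6.45, 6.39, 6.47 and 6.42 at M1 in KO. At M2 the WT arrays read 6.04, 5.88, 6.20 and 5.71 and the KO arrays 6.10, 5.85, 5.78 and 5.59. The KO M1 arrays lay above all 20 others. The KO M1 mean minus the WT M1 mean was 0.75 ± 0.13 (adjusted p = 7.4e-05), which held under all 4 scalings, and the response difference was 0.90 ± 0.18 (adjusted p = 0.000699), which was 0.41 with quantile normalization (adjusted p = 0.0659). Ndufab1 rose in KO relative to WT on its brighter probe (0.67 ± 0.10, adjusted p = 1.08e-05), but its other probe gave -1.40 and passed the other way. The response difference was likewise 0.72 on the first and -1.03 on the second, both called, so the probes give no common direction for this gene in M1.

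Of the 30 accessory subunits of complex I, 6 were lower in KO M1, with Ndufa4 counted, and 3 were higher, which is 20% and 10% against 21.3% and 22.7% of all genes. Ndufc2, of the membrane arm, gave -0.68 ± 0.10 (adjusted p = 6.43e-06), Ndufc1 -0.51 ± 0.18 (adjusted p = 0.0237) and Ndufb3 -0.49 ± 0.11 (adjusted p = 0.000899). The response differed for Ndufc2 at -0.60 ± 0.14 (adjusted p = 0.00182) and for Ndufb3 at -0.53 ± 0.15 (adjusted p = 0.0112). In complex V, Atp5d was lower, at -0.42 ± 0.09 (adjusted p = 0.000978) and Atp5s at -0.59 ± 0.13 (adjusted p = 0.00114). All 5 were lower in KO in each of the 4 sets and passed under all 4 scalings.

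**Figure D5:**
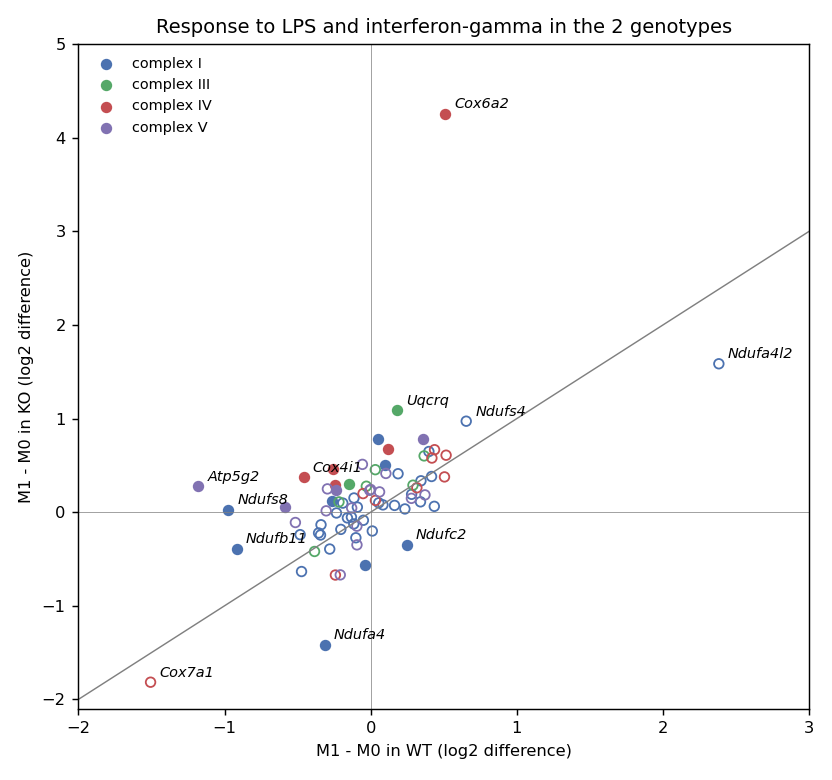
Log2 difference M1 minus M0 of each of the 78 genes in WT (horizontal) against KO (vertical), with the line of equal response; filled points passed the test of the response difference and colours mark complexes. Cox6a2 lies far above the line at 4.26 in KO, Atp5g2, Ndufs8 and Cox4i1 lie left of it, and Ndufa4 lies below it at -1.41 in KO; the vertical positions shift down under quantile normalization.

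Across the 78 genes the M1 responses of WT and KO had the same sign for 55 genes, a Pearson correlation of 0.558 and a median absolute difference of 0.24, and 17 differed by more than 0.5, compared with 0 of 78 for IL-4. Over all 25791 genes, with M1, 70.4% had the same sign, the Pearson correlation was 0.746 and the median absolute difference was 0.55. Of all genes, 53.5% differed by more than 0.5 with M1 and 11% with IL-4, so this contrast was not particular to the members. Of the 16 genes that rose in WT and 24 in KO, 11 were shared (68.8% and 45.8%), and of the 15 and 13 that fell, 6 were shared (40% and 46.2%). The same shares over all genes were 70.5% and 55.6% of those that rose and 62.2% and 57.9% of those that fell. Markers of other cell types moved with the same comparison. Of 7 neutrophil markers 3 were higher and 1 lower in KO M1 than in WT M1, and their summed level was 38.7 times the array's 75th percentile in WT M1 and 106.5 in KO M1, against 157.7 in WT M0 and 122.1 in KO M0. Of 4 B cell markers 2 were higher and 1 lower, of 4 dendritic cell markers 1 and 1, of 3 mast cell markers 2 and 0, and of 3 T cell markers 1 and 0. The summed levels of these lists in WT M1 and KO M1 were 0.315 and 0.312 for B cells, 53.6 and 87.6 for dendritic cells, 0.0404 and 0.143 for mast cells and 1.63 and 3.23 for T cells. The counts moved with the scaling. With quantile normalization they were 1 and 1 for neutrophils and B cells and 0 and 1 for dendritic cells. On the bright genes they were 0 and 1 for each of these. Mast and T cells gave 1 and 0 under both. Of 7 macrophage markers 1 was higher and 1 lower, against 1 and 4 with quantile normalization and 0 and 4 on the bright genes. The part of these markers in the result was not tested. The KO M1 arrays were also the dimmest, and the part of array brightness was not tested beyond the scalings given.

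Of the other genes of the pathway, each list below but that of mitochondrial DNA had more genes lower than higher in KO M1, under each of the 4 scalings. The counts that follow are to be read against 26% higher and 21.9% lower of all genes for M1 in WT, and 22.7% and 21.3% for KO minus WT in M1. Of 4 complex II genes, 3 were lower in KO M1, Sdhd at -0.56 ± 0.10 (adjusted p = 7.04e-05), Sdhc at -0.41 ± 0.14 (adjusted p = 0.0229) and Sdhb at -0.35 ± 0.10 (adjusted p = 0.00744), and 1 was higher. With IL-4 3 of 4 rose in each genotype. Of 20 complex IV assembly factors, 10 rose and 1 fell with M1 in WT, and 10 were lower and 2 higher in KO M1 (16 and 0 on the bright genes). Sco1, which delivers copper to complex IV, rose by 2.3 ± 0.16 (adjusted p = 3.94e-10), Coa5 by 1.70 ± 0.11 (adjusted p = 2.59e-10) and Cox18 by 1.49 ± 0.17 (adjusted p = 3.07e-07). In KO M1 Cox20, Taco1 and Coa4 were lower, at -0.99 ± 0.13, -0.98 ± 0.12 and -0.98 ± 0.09 (adjusted p = 3.99e-06, 1.27e-06 and 1.16e-08).

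Of 13 complex I assembly factors, 8 rose and 3 fell with M1 in WT (4 and 3 with quantile normalization or on the bright genes), and 7 were lower and 1 higher in KO M1. Timmdc1 and Ndufaf3 rose in WT by 1.12 ± 0.12 and 0.80 ± 0.14 and Ndufaf7 fell, at -0.78 ± 0.18 (adjusted p = 2.09e-07, 7.35e-05 and 0.00104). In KO M1 Tmem126b and Foxred1 were lower, at -1.28 ± 0.17 and -1.28 ± 0.13, and Acad9 was higher, by 1.43 ± 0.31 (adjusted p = 3.02e-06, 1.01e-07 and 0.000705). Of 6 complex III assembly factors, 3 rose in WT M1 (Ttc19 by 0.84 ± 0.15, Uqcc1 by 0.75 ± 0.10 and Uqcc3 by 0.35 ± 0.08) and 3 were lower in KO M1 (Uqcc1 at -0.79 ± 0.10, Uqcc3 at -0.66 ± 0.08 and Bcs1l at -0.52 ± 0.10). Of the 4 ATP synthase assembly genes, Atpaf2 rose by 1.00 ± 0.10 (adjusted p = 1.06e-07) and Atpif1, which inhibits the enzyme, fell, at -1.13 ± 0.15 (adjusted p = 2.16e-06) with M1 in WT. Atpaf1 was lower in KO M1 at -1.06 ± 0.12 (adjusted p = 4.87e-07), as was Tmem70 at -0.42 ± 0.10 (adjusted p = 0.00112).

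Of 18 carriers and ubiquinone genes, 9 rose and 3 fell with M1 in WT, and 2 were higher and 9 lower in KO M1 (on the bright genes 2 and 14), while 5 rose with IL-4 in WT. Cycs, cytochrome c, rose by 2.03 ± 0.25 (adjusted p = 9.58e-07) and Gpd2, the mitochondrial glycerol phosphate dehydrogenase, by 1.92 ± 0.15 (adjusted p = 1.68e-09). Adck3, a kinase-like protein of ubiquinone synthesis, fell, at -1.65 ± 0.25 (adjusted p = 1.7e-05) in WT and was higher in KO M1 by 1.88 ± 0.25 (adjusted p = 3.34e-06). Coq2 and Pdss1, of the same synthesis, were lower in KO M1 at -1.09 ± 0.16 and -0.97 ± 0.38 (adjusted p = 8.79e-06 and 0.0474).

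Among 12 regulators of mitochondrial biogenesis, 6 rose and 4 fell with M1 in WT, and 3 were higher and 4 lower in KO M1 (on the bright genes 0 and 6). Esrra, an orphan nuclear receptor, and Ppargc1b, its coactivator, rose by 1.03 ± 0.10 and 1.03 ± 0.26, and Tfb2m, of mitochondrial transcription, fell, at -1.0 ± 0.12 (adjusted p = 2.5e-08, 0.0026 and 5.47e-07). Ppargc1b was 1 of 2 regulators that rose with IL-4 in WT, by 3.26 ± 0.26 (adjusted p = 3.1e-08) in WT and 3.12 ± 0.26 (adjusted p = 6.58e-08) in KO. In KO M1, Pprc1 and Gabpb1 were higher by 0.74 ± 0.18 and 0.72 ± 0.15 and Nrf1, which encodes NRF-1, was lower, at -0.72 ± 0.11 (adjusted p = 0.00209, 0.000632 and 1.45e-05).

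Of the 11 genes of the chain in mitochondrial DNA that were tested, 1 rose and 3 fell with M1 in WT, and 2 were higher and 2 lower in KO M1. The second counts were 0 and 4 with quantile normalization and 0 and 7 on the bright genes. With IL-4 their median was 0.06 in WT and 0.17 in KO. ND1, a core subunit of complex I, rose with IL-4 in KO by 0.66 ± 0.18 (adjusted p = 0.019), and in WT the smallest adjusted p among the 11 was 0.134 (ND1). With M1 in WT, ND6 rose by 1.12 ± 0.34 (adjusted p = 0.00911), and ND2 and ND1 fell, at -0.64 ± 0.13 and -0.55 ± 0.18 (adjusted p = 0.00042 and 0.016). In KO M1, ND3 and ND6 were lower, at -1.21 ± 0.17 and -0.90 ± 0.34 and COX1 was higher by 0.32 ± 0.12 (adjusted p = 5.26e-06, 0.0358 and 0.0344).

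The mitochondrial ribosomal proteins, nuclear genes that are needed to translate those of mitochondrial DNA, were taken as a group of like kind with 77 tested genes. With IL-4, 13 rose and 0 fell in WT and 12 rose in KO, against 42 and 37 of 78 members. With M1 in WT, 28 rose and 3 fell, against 16 and 15 members, and in KO M1 15 were higher and 21 lower than in WT. Under quantile normalization these counts were 17 and 22 with M1 in WT and 16 and 28 in KO M1, and on the bright genes 23 and 10 and 5 and 53. Mrpl23 fell, at -1.60 ± 0.18 (adjusted p = 3.29e-07) and Mrpl27 and Mrpl53 rose by 0.90 ± 0.10 and 0.88 ± 0.23 with M1 in WT. In KO M1 Mrps6 and Mrpl23 were higher by 1.86 ± 0.19 and 1.27 ± 0.18 and Mrpl42 was lower, at -1.33 ± 0.17. These differences between the groups of genes were not tested.

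The motifs described above were in like shares of the members that rose with IL-4 and of the others. In WT at least 1 of the 3 was in 15 of 34 windows of members that rose (44.1%) and in 13 of 30 of those that did not (43.3%). In KO M1 it was in 6 of 14 windows of members that were higher and in 2 of 8 of those that were lower. No test was run on these counts.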

How the data were processed

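RNA of 24 macrophage cultures was purified on columns, labelled with Cy3 and hybridised to 1-colour Agilent arrays, per the labels' protocols. The deposited scanner files give for each spot a processed intensity in linear units, which the software had background-subtracted and detrended within the array, per the file headers; they were not normalized between arrays. The headers name Feature Extraction 10.7.3.1 and build mm9, and the submitters' processing notes name version 9.1.

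From these intensities the log2 value of each of 56605 gene probes relative to the 75th percentile of its array was computed, with outlier spots left out and spots of a probe averaged. The 0 saturated spots needed no treatment. Probes well above background on at least 4 of 24 arrays were kept (39036), and the brightest stood for a gene. Differences were tested in limma 3.58.1 (R 4.3.3) with 1 mean per group over all 24 arrays, 18 residual degrees of freedom and Benjamini-Hochberg adjustment over 25791 genes, and the script was tested on simulated data. Named genes are the 6 largest called rises and falls of each comparison, the largest of each complex in KO minus WT in M1, 13 isoform genes given throughout, and for other lists the 3 largest called changes with M1 in WT and between genotypes in M1. The 250 bases shown come from RefSeq tables. The members and lists were chosen with earlier results of these data known.

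The labels number the replicates. KO and WT arrays of 1 state with the same number deviated together in 12 of 12 pairs (correlation 0.17 to 0.84). Arrays of different states with the same number did so in 21 of 48. Arrays of the same set, of any state, did so in 57 of 60. Within a state the arrays with the same number also share a set, so number and set cannot be told apart there. Across states the shared deviation followed the set, not the number. Alternatives were other scalings, background, filters and probe rules, blocks for set, slide and replicate number, and leaving out arrays. The number of arrays limits the precision.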

Additional observations from a re-analysis of the deposited data

Results flagged for a closer look

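In a group of 4 arrays, 1 array stood apart from the other 3 in 7 pairs of a named gene and a group. This is 3.65% of all 192 pairs, where chance alone flags about 1 in 20. The 192 include a few pairs with only 3 values, which were not examined, so the share is slightly too low. Lowest of their group were Ndufs4 on KO M2 replicate 4, at 3.54 against 3.80 to 3.86 on the other 3, Cox7a1 on WT M0 replicate 2, at 0.36 against 1.31 to 1.45, and Atp5h on KO M1 replicate 3, at 5.58 against 5.94 to 6.01. AA467197 was lowest on KO M1 replicate 3, at 6.71 against 7.51 to 7.61. Highest were Cox5a on WT M0 replicate 2, at 6.55 against 6.39 to 6.41, Ndufc2 on WT M1 replicate 3, at 5.78 against 5.60 to 5.62, and Uqcrc1 on KO M1 replicate 4, at 4.75 against 4.64 to 4.65. Of these arrays, all but that of Uqcrc1 belong to the 4th set.

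The response to LPS and interferon-gamma differed between genotypes, by the interaction term, for 15 of the named members. KO minus WT of the response was 3.75 for Cox6a2, 1.46 for Atp5g2, 1.00 for Ndufs8, 0.90 for Uqcrq, 0.83 for Cox4i1, 0.72 for Cox7a2l, 0.72 for the brighter probe of Ndufab1 (-1.03 for its other probe, called the other way), 0.64 for Atp5h, 0.54 for Cox4i2, 0.53 for Ndufb11, 0.47 for Atp5g3 and 0.42 for Atp5b. It was -1.10 for Ndufa4, -0.60 for Ndufc2 and -0.53 for Ndufb3.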

How the results depend on the processing

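Another scaling moved several counts and medians, and the cause was not tested. The shares of all genes called under these scalings are given with the results above. For M2 minus M0 in KO with quantile normalization they were 6.7% higher and 6.56% lower. With quantile normalization, M1 minus M0 gave 3 higher, 37 lower and a median of -0.25 in WT, against 5, 56 and -0.42 in KO, M2 minus M0 in KO gave 23, 1 and 0.25, KO minus WT in M1 gave 9, 29 and -0.19, and the response difference gave 6, 16 and -0.13. With the median of 2163 bright genes as centre, a choice made after seeing the data, the values were 4, 57 and -0.47 for M1 in KO, 18, 2 and 0.23 for M2 in KO, 7, 49 and -0.37 for KO minus WT in M1 and 4, 34 and -0.35 for the response. The median of KO minus WT in M0 was -0.027 and -0.012 under these 2, and with the median of tested genes as centre the M2 median in KO was 0.43.

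Signs turned with quantile normalization for M1 minus M0 of Cox6a1 in WT (-0.13) and, in KO, of Cox4i1 (-0.39), Cox6a1 (-0.51), Cox7a2 (-0.10), Cox7a2l (-0.29), Atp5g1 (-0.39), Atp5g2 (-0.50) and Atp5g3 (-0.45). They turned on the bright genes in KO for Cox4i1 (-0.22), Cox4i2 (-0.31), Cox6a1 (-0.34), Cox7a2l (-0.14), Atp5g2 (-0.32) and Atp5g3 (-0.36). KO minus WT in M1 turned for Cox7a2 (-0.38 and -0.40) and Atp5g3 (-0.021 and -0.078) under quantile normalization and bright genes, and the response for Cox7a2 (-0.42 under each) and, on the bright genes, Atp5g3 (-0.037). With the mean of its probes the response difference of Ndufab1 was -0.15.

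With the replicate number as a block, M1 minus M0 gave 19 higher and 15 lower in WT and 27 and 14 in KO, M2 minus M0 46 and 2 in WT against 45 and 1 in KO, and the genotypes in M1 21 and 13, and the response 17 and 4. The block changed 9 calls of the named genes. Across states the number joins some arrays of different sets, so changed calls that compare states are no added support. Beside those given with their results, the response difference of Atp5g1 passed (adjusted p = 0.0292), as did IL-4 for Ndufa4 in WT (adjusted p = 0.0417) and Cox7a2 in KO (adjusted p = 0.0197). Falls with IL-4 in WT numbered 0 with normexp and without a filter and 2 with a replicate, slide or set block, and in KO 2 with a slide or set block. The set as a block gave 57 rises with IL-4 in KO and 18 members lower in KO M1, and without the 4th set 24 fell with M1 in WT.

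Leaving out 1 array at a time gave 26 to 49 rises and 0 to 2 falls with IL-4 in WT, a median of 0.32 to 0.42 with IL-4 in KO, and a median of -0.17 to -0.040 for KO minus WT in M0.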
